A study of Mus musculus with 10 samples.

Results

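Cd59a and Cd59b, the mouse paralogs of the complement inhibitor CD59, were followed together with Cd55, Cr1l, Serping1, C3 and C4b in VAChT knockdown (KD) and wild-type (WT) mice. The set was chosen with earlier results of these data known: the differences of Cd59a and Cd59b between KD and WT cardiomyocytes had singled them out, so values of that comparison are given as a description with no test. A gene was represented by its probe set with a single gene symbol and, where there were several, by the one with the highest mean over the 10 arrays. Of the 7 genes named, 6 were measured, each by 1 probe set, out of 19938 measured genes in all. C3 had no probe set under its own symbol in the annotation used and was not analysed here.

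The samples were ventricular cardiomyocytes of WT mice (3 arrays) and of KD mice (3 arrays), and whole hearts of WT mice (2 arrays) and of KD mice (2 arrays). All mice were male C57BL/6 animals aged 3 months and received no treatment, and each array held RNA pooled from 2 samples. VAChT is the transporter, encoded by Slc18a3, that fills synaptic vesicles with acetylcholine. How the knockdown was made is not given in the sources used here, and Slc18a3 itself was not lower in the KD arrays of either kind (difference 0.16 on the log2 scale, SE 0.16, in cardiomyocytes and 0.05, SE 0.19, in hearts). Nothing in the labels says that the arrays of a group came from separate animals, so p-values rest on variation among arrays that may be technical.

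Complement is a protein cascade of blood and tissue fluid that marks cells and microbes for clearance. The classical pathway (C1q, C1r, C1s, C2, C4), the lectin pathway and the alternative pathway converge on cleavage of C3, and the terminal components C5 to C9 then assemble a pore in the target membrane. Host cells are protected by inhibitors in the plasma membrane and in plasma, and cardiac muscle is a known site of complement deposition after ischaemia. CD59 is a small protein on a glycosylphosphatidylinositol (GPI) anchor that binds C8 and C9 and blocks the pore. Mice carry a pair of CD59 genes: Cd59a is expressed in many tissues, and Cd59b is known chiefly from the testis.

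The Cd59 genes lie side by side on mouse chromosome 2, in the same orientation. In the GRCm38.p6 reference, Cd59b spans chr2:104069781-104085790 and Cd59a spans chr2:104095753-104115410, with 9962 bases between them. Their RefSeq promoter windows, each from 250 bases before to 50 bases after a transcript start, are shown because the values of these genes followed each other across the arrays. Both are read 5′ to 3′ on the + strand, and capitals mark matches to the motifs searched. The Cd59b window is chr2:104070816-104071115 and the Cd59a window is chr2:104095551-104095850. The transcript starts used lie inside the gene spans, 1285 bases past the first base of Cd59b and 48 bases past that of Cd59a, so the Cd59b window lies wholly within the span of its gene.
Cd59b: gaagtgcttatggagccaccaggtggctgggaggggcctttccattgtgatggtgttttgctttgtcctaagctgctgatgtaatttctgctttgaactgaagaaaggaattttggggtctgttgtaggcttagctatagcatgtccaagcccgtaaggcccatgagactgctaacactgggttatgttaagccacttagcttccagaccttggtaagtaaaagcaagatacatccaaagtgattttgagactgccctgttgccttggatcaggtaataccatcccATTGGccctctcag
Cd59a: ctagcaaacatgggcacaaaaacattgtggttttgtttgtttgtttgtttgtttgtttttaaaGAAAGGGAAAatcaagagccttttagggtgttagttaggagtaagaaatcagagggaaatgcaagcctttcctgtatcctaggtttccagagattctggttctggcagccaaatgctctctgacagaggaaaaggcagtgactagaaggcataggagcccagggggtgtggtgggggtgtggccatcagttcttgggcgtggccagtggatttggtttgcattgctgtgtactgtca

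The motifs were GGGCGG (the GC box), CCAAT (the CCAAT box), TATAAA (the TATA box), TTCNNNGAA (the gamma-activated site), GAAA followed after any 2 bases by GAAA (the interferon-stimulated response element) and CACGTG (the E-box), each on both strands; the matches found did not overlap each other. The Cd59a window held 1 match, to the interferon-stimulated response element, starting at position -187 from that transcript start, and that motif was present in 3.44% of 32851 promoter windows of this length. The Cd59b window held 1 match, to CCAAT on the opposite strand at position 37 after the start, and CCAAT was present in 37.4% of the windows. Both windows were poor in CpG, with 1 CpG each against a median of 7 over all windows, and had a G+C content of 45.7% in Cd59a and 47.0% in Cd59b. The windows of the other members available differed from these. Cd55 on chromosome 1 had 12 CpGs, a G+C content of 63.3% and 2 GC box matches (a motif in 35.7% of windows). Like the Cd59b window, that of Cd55 (chr1:130462695-130462994) lies wholly within the span of its gene (chr1:130429798-130465009). Cr1l had 6 CpGs, a G+C content of 41.3% and no match. A match is a string of letters and not a shown binding site.

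In cardiomyocytes Cd59a was higher in the KD arrays. Its log2 intensity was 10.68, 9.92 and 9.87 in WT replicates 1, 2 and 3 and 11.66, 11.09 and 10.84 in KD replicates 1, 2 and 3. Every KD array lay above every WT array, with WT replicate 1 the nearest to the KD group. The KD mean of 11.20 ± 0.42 compared with a WT mean of 10.15 ± 0.45 (SD, n = 3 each), which is 1.04 higher (SE 0.25), or 2.06-fold. This was the rank 2 difference from the top among 19938 genes, and it lay between 0.81 and 1.30 when each cardiomyocyte array was left out in turn.

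Cd59b showed the same picture at a lower signal. It was 6.10, 5.74 and 5.73 in the WT cardiomyocyte arrays and 7.07, 6.56 and 6.11 in the KD arrays. The groups did not overlap, but KD replicate 3 and WT replicate 1 were nearly level. The KD mean of 6.58 ± 0.48 compared with a WT mean of 5.85 ± 0.21 (SD, n = 3 each), which is 0.72 higher (SE 0.19), or 1.65-fold, at rank 7 from the top. Without KD replicate 1 the Cd59b difference was 0.48. Cd59b lay near the median of all genes on these arrays, 6.19 to 6.27, so its signal was dim. Complete separation with KD on the higher side occurred in 2.99% of all genes in cardiomyocytes, and limma called 0% of genes at an adjusted p of 0.05 (2.1% had an unadjusted p under 0.05); because these genes were picked from this comparison, nothing is read from their place in it.

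**Figure D1:**
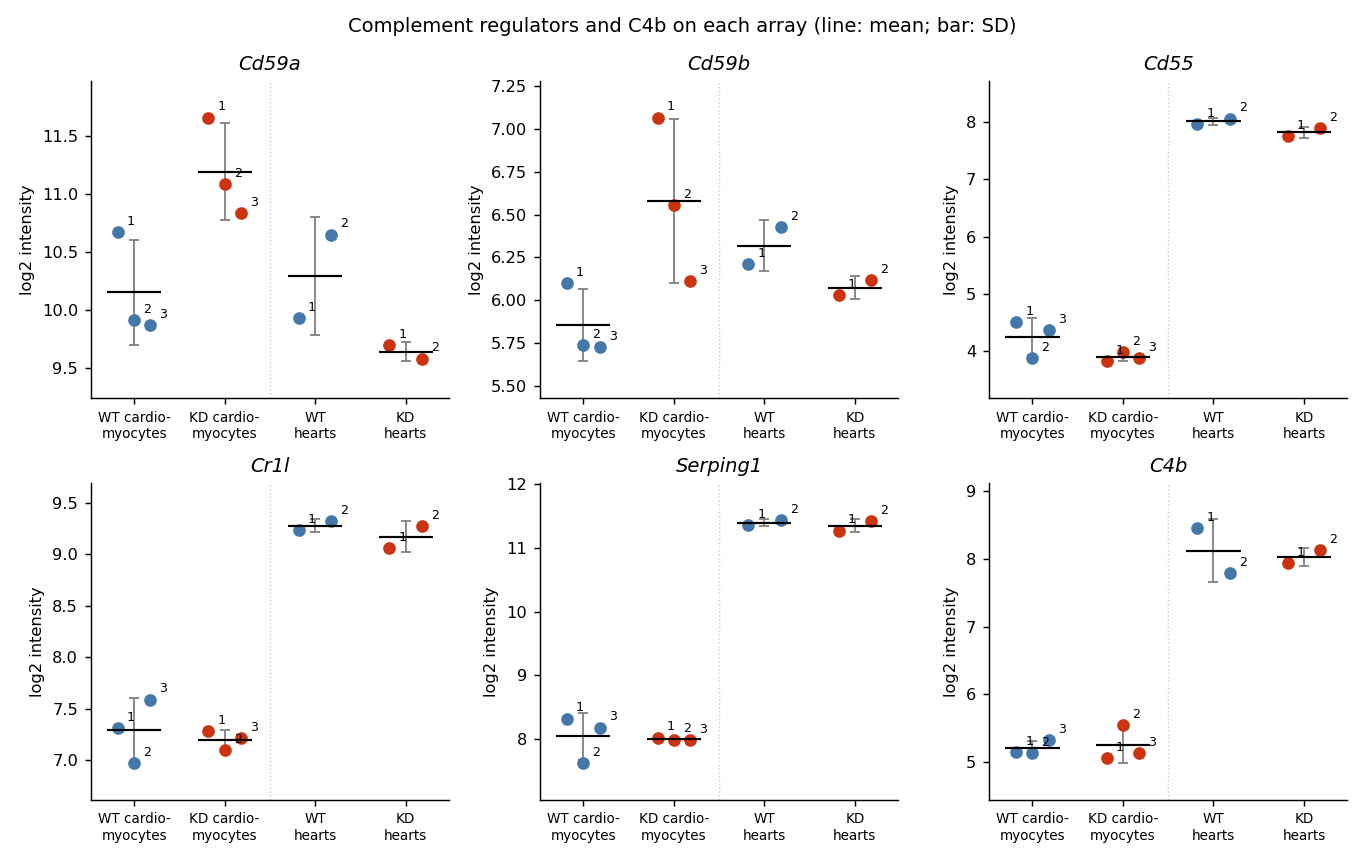
Log2 intensity of the 6 measured genes on each array, by genotype and tissue, with replicate numbers beside the points, group means as black lines and SD as grey bars. Cd59a and Cd59b were higher in all 3 KD than in all 3 WT cardiomyocyte arrays and lower in both KD than in both WT hearts, while Cd55, Cr1l, Serping1 and C4b differed far more between the tissues than between the genotypes on the deposited scale.

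Whole hearts, whose arrays played no part in picking Cd59a and Cd59b, had the opposite direction. Cd59a was 9.93 and 10.65 in WT hearts and 9.70 and 9.58 in KD hearts. Both KD hearts lay below both WT hearts, although WT replicate 1 was closer to the KD hearts than to WT replicate 2. The KD mean of 9.64 ± 0.08 compared with a WT mean of 10.29 ± 0.51 (SD, n = 2 each), giving KD minus WT as -0.65 (SE 0.30, 95% confidence interval -1.31 to -0.001). The limma unadjusted p was 0.0497 and the adjusted p over all genes was 1, so the difference did not pass the threshold. WT replicate 2 carried much of it: the difference was -0.29 without that array and -1.01 without WT replicate 1, a fit that takes the lone WT heart to be as variable as the arrays of other groups.

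Cd59b was 6.21 and 6.43 in WT hearts and 6.03 and 6.12 in KD hearts. These levels lay below the heart array medians of 7.54 to 7.59, so the signal was dim here too. Again both KD hearts lay below both WT hearts. The KD mean of 6.07 ± 0.07 compared with a WT mean of 6.32 ± 0.15 (SD, n = 2 each). KD minus WT was -0.25 (SE 0.24, interval -0.76 to 0.26), with a limma adjusted p of 1; without WT replicate 2 it was -0.14. These hearts gave no call for any gene: 0% of 19938 genes passed an adjusted p of 0.05 in limma, 4.93% had an unadjusted p under 0.05, and both KD hearts lay below both WT hearts in 15.4%. All KD arrays above WT in cardiomyocytes together with all KD arrays below WT in hearts, the pattern of both Cd59 genes, occurred in 93 of 19938 genes (0.466%). The cardiomyocyte difference had singled these genes out, so the 0.466% does not say how rare their heart side was. Of 597 genes with all KD above all WT cardiomyocyte arrays, those 93 had the heart side, which 15.4% of all genes had. The opposite pattern, KD below WT in cardiomyocytes and above WT in hearts, occurred in 0.557%.

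Thymocyte markers set KD heart replicate 1 apart: their mean log2 level over 9 measured genes was 9.96 there and 6.62 to 6.91 in the other 3 hearts. Without that array the heart difference was -0.71 for Cd59a and -0.20 for Cd59b, so it was as large for Cd59a. Fibroblast, endothelial, and smooth muscle and pericyte markers were also lower in the KD hearts, with medians of -0.29, -0.21 and -0.19. Both KD hearts lay below both WT hearts in 8 of 8, 6 of 8 and 5 of 7 of these genes, against 15.4% of all genes. The genes of a list were read on the same arrays, so these counts are not separate observations. The mean level of the fibroblast list was 9.77 to 9.90 in KD and 10.09 to 10.17 in WT hearts, that of the endothelial list 10.13 to 10.23 and 10.29 to 10.47, and that of the smooth muscle and pericyte list 9.33 to 9.42 and 9.51 to 9.57. Cardiomyocyte markers were lower in 8 of 8 genes with a median of -0.11, and atrial markers in 5 of 5 with a median of -0.79, where 47.4% of all genes were lower. KD heart replicate 2 carried the atrial value: the mean level of that list was 9.25 there, 10.35 in KD replicate 1 and 10.54 to 10.64 in WT, and the median was -0.24 without KD replicate 2 and -1.45 without KD replicate 1. The endothelial median was -0.08 and the smooth muscle and pericyte median -0.11 without WT heart replicate 1, and the cardiomyocyte marker median was -0.057 without KD heart replicate 1. The part of these cell types in the Cd59 values was not tested, and fewer cells of a type cannot be told apart from less RNA per cell in such samples.

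The Cd59 paralogs followed each other closely from array to array. The 6 cardiomyocyte arrays fell into the same order for both genes, from KD replicates 1, 2 and 3 down to WT replicates 1, 2 and 3. In hearts the order was WT replicate 2, WT replicate 1, then the KD arrays, whose order was reversed between the genes. Since the order of the genotypes was part of what singled these genes out, the comparison was repeated on deviations from the 4 group means, which carry no genotype difference.

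Over the 10 arrays these deviations had a Pearson r of 0.86 (exact permutation p = 0.0208, two-sided, shuffling within groups, where 0.00694 is 1 of 144 arrangements) and a Spearman rho of 0.88 (exact permutation p = 0.0208). They had the same sign in 8 of 10 arrays, the exceptions being the KD hearts. The heart deviations of a gene mirror each other within a group, so the signs are not separate agreements. Without the arrays farthest from the median, WT and KD cardiomyocyte replicate 1, r was 0.72. Among all 15 pairs of the 6 genes, 0 passed an adjusted p of 0.05, and this pair had an adjusted p of 0.26 (0.312 for rho), so the relation did not survive correction over the pairs. The range of r with each array left out was 0.82 to 0.90. No probe sequences were used here, and whether the Cd59a and Cd59b probe sets bind each other's transcript was not tested.

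**Figure D2:**
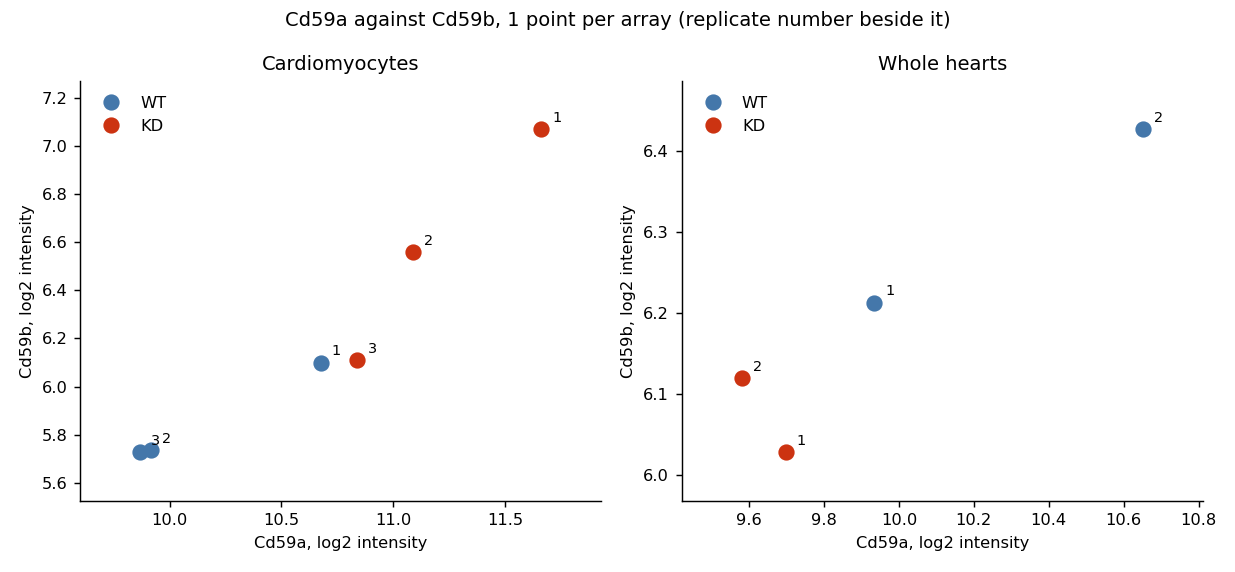
Log2 intensity of Cd59b (vertical axis) against Cd59a (horizontal axis), 1 point per array, for cardiomyocytes (left) and whole hearts (right), with axes that do not start at 0. The cardiomyocyte points ascend in a single order from WT replicate 3 at 9.87 and 5.73 to KD replicate 1 at 11.66 and 7.07, and the heart points ascend except for the KD pair.

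After the mean of each tissue was removed, Cd59b ranked 6 among 19937 genes in likeness to Cd59a over the 10 arrays (Pearson r = 0.93 as a description), and Cd59a ranked 6 in likeness to Cd59b. This measure keeps the difference between the genotypes. Both genes were singled out by that difference in cardiomyocytes, so their high r and rank were in part set by the choice, and nothing is read from them. The genes nearest to Cd59a with a named function or symbol were Shld1, a subunit of the shieldin DNA repair complex (r = 0.95), Plpp5, a phospholipid phosphatase (0.95), Coasy, the coenzyme A synthase (0.94), and Pusl1, a pseudouridine synthase-like gene (0.93). Those nearest to Cd59b were Coasy (0.97), Gss, the glutathione synthetase (0.97), Shld1 (0.95), Fgd6 (0.94) and Rab14, a small GTPase of vesicle traffic (0.94). Shld1 differed by 0.63 between KD and WT cardiomyocytes, and Coasy by 0.24. The other measured members, which the cardiomyocyte difference had not singled out, had a lower r with Cd59a: 0.22 for Serping1, -0.0049 for Cr1l, -0.21 for Cd55 and -0.22 for C4b.

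The genes beside the pair did not share its pattern in cardiomyocytes. Among the 4 nearest measured genes on each side, differences in cardiomyocytes ran from -0.10 in 4931422A03Rik to 0.10 in D430041D05Rik, and KD and WT arrays overlapped in all 8. Fbxo3, an F-box protein gene that ends 6.5 kb before Cd59b, was 9.45, 9.28 and 9.39 in WT against 9.55, 9.29 and 9.38 in KD cardiomyocytes. In hearts Fbxo3 differed by -0.24 and 4931422A03Rik, 41.4 kb before the pair and overlapping Fbxo3 at its end, by 0.44. The other 6 neighbours differed by -0.07 to 0.16 in hearts.

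**Figure D3:**
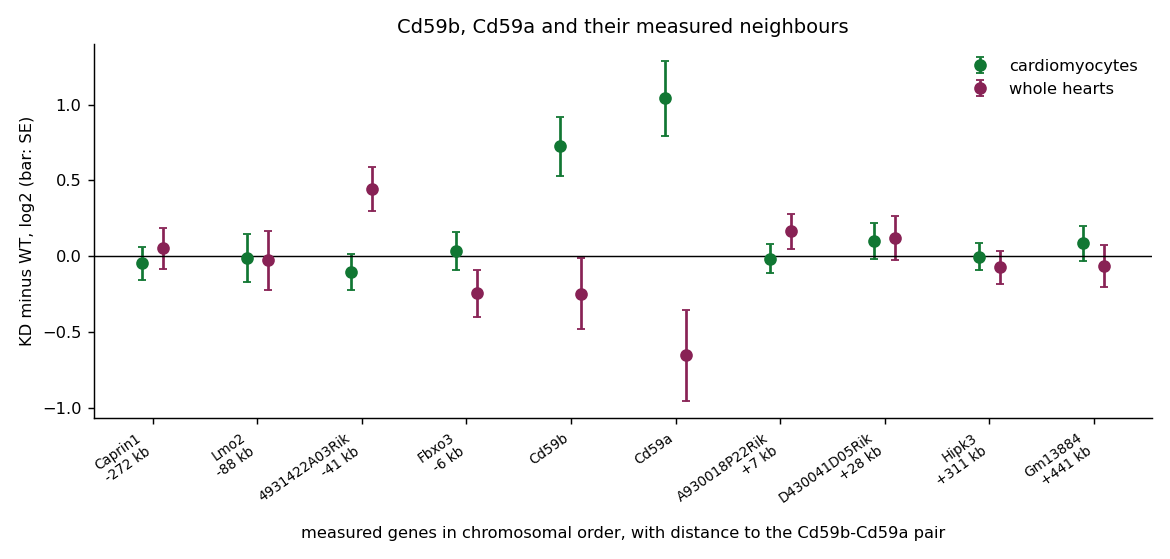
KD minus WT difference on the log2 scale (vertical axis, bars SE) for Cd59b, Cd59a and the 4 nearest measured genes on each side, in chromosomal order, with the distance to the pair in kb under each name. In cardiomyocytes the Cd59b and Cd59a points stand at 0.72 and 1.04 and the neighbours between -0.10 and 0.10; in hearts both Cd59 points lie below 0.

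Cd55 encodes decay-accelerating factor, another GPI-anchored protein, which takes apart the enzyme complexes that cleave C3. In cardiomyocytes Cd55 was 4.50, 3.88 and 4.37 in WT against 3.83, 3.98 and 3.88 in KD. WT replicates 1 and 3 were high, and WT replicate 2 lay among the KD arrays. The difference was -0.35 (SE 0.14), -0.23 without WT replicate 1 and -0.54 without WT replicate 2, and all of these levels were well below the array medians of 6.19 to 6.27. In hearts Cd55 was 7.97 and 8.06 in WT against 7.76 and 7.89 in KD, with both KD hearts below both WT hearts (as in 15.4% of all genes). That difference was -0.19 (SE 0.17, interval -0.56 to 0.18; limma adjusted p 1), and -0.12 without KD replicate 1, the heart with thymocyte markers.

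Cr1l encodes Crry, a rodent membrane protein that both disassembles these enzymes and helps factor I degrade C3b and C4b. It was 7.31, 6.97 and 7.59 in WT against 7.29, 7.10 and 7.21 in KD cardiomyocytes, where all KD values lay inside the WT range. The difference was -0.09 (SE 0.14), and 0.057 without WT replicate 3. In hearts Cr1l was 9.24 and 9.32 in WT against 9.06 and 9.28 in KD, with overlapping groups. The heart difference was -0.11 (SE 0.17, interval -0.48 to 0.26; limma adjusted p 1), and -0.0024 without KD replicate 1.

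Serping1 encodes the plasma C1 inhibitor, which inactivates C1r, C1s and the lectin pathway proteases. In cardiomyocytes it was 8.32, 7.62 and 8.18 in WT against 8.02, 7.99 and 7.99 in KD. The KD arrays were nearly identical (SD 0.02, n = 3) and the WT arrays spread around them (SD 0.37, n = 3), which left a difference of -0.04 (SE 0.15) that was 0.10 without WT replicate 1, 0.029 without WT replicate 3 and -0.25 without WT replicate 2. In hearts Serping1 was 11.36 and 11.43 in WT against 11.27 and 11.42 in KD, a difference of -0.05 (SE 0.18, interval -0.45 to 0.35; limma adjusted p 1), which was 0.065 after quantile normalization of all arrays and 0.023 without KD replicate 1. The confidence interval allows up to a 0.45 lower or 0.35 higher level in KD hearts.

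C4b encodes the main mouse complement component C4, whose fragments form part of the classical and lectin C3-cleaving enzyme. It was 5.14, 5.14 and 5.33 in WT against 5.06, 5.55 and 5.14 in KD cardiomyocytes. Both groups lay below the array medians and overlapped, with a difference of 0.05 (SE 0.17) that was -0.10 without KD replicate 2. In hearts C4b was 8.45 and 7.79 in WT against 7.93 and 8.12 in KD, so that both KD arrays lay between the WT arrays. The difference was -0.09 (SE 0.20, interval -0.53 to 0.35; limma adjusted p 1), 0.24 without WT replicate 1, -0.42 without WT replicate 2, 0.0031 without KD replicate 1 and -0.19 without KD replicate 2. C4a, a near-identical neighbouring gene with a probe set of its own and added after its values were seen, differed by 0.03 in cardiomyocytes and 0.20 in hearts; how far the C4 probe sets are specific was not tested.

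Serping1 and Cd55 varied together within the WT cardiomyocytes, both high in replicate 1 and low in replicate 2. Their deviations from group means had a Pearson r of 0.96 (exact permutation p = 0.0347, adjusted p = 0.26 over the 15 pairs; Spearman rho 0.82, exact permutation p = 0.0694), with the same sign in 8 of 10 arrays. Here too the heart deviations mirror each other within a group, so the signs are not separate agreements. Without WT cardiomyocyte replicates 1 and 2, r was 0.73. Fibroblast markers took the same order over those WT arrays, with mean levels of 7.26, 6.70 and 7.11 in replicates 1, 2 and 3, and endothelial markers likewise at 8.95, 8.63 and 8.81. Not all lists did. Macrophage markers, at 5.61, 5.36 and 6.00, and smooth muscle and pericyte markers, at 7.96, 7.81 and 8.03, were highest in replicate 3. The part of these cell types in the Serping1 and Cd55 values was not tested. Among the WT cardiomyocyte arrays both Cd59 genes were also highest in replicate 1, while replicates 2 and 3 were nearly level in both.

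Between the tissues the members split into separate groups. The tissues had different array medians (6.19 to 6.27 in cardiomyocytes, 7.54 to 7.59 in hearts), appear to have been normalized apart, and were labelled by different written protocols, so levels are given relative to each array's median and without a test. Cd59a stood 4.97 above the median in KD cardiomyocytes (4.63 to 5.48 over arrays), 3.94 in WT cardiomyocytes (3.65 to 4.48), 2.75 in WT hearts (2.40 to 3.11) and 2.07 in KD hearts (2.00 to 2.14), and no neighbours in this order overlapped. Cd59b took the same order, at 0.36 (-0.09 to 0.88), -0.36 (-0.49 to -0.10), -1.22 (-1.32 to -1.11) and -1.50 (-1.53 to -1.47). For Cd59b the cardiomyocyte genotypes were separated by less than the spread within either of them. The WT cardiomyocyte minus WT heart difference was 1.19 for Cd59a and 0.86 for Cd59b on this scale, 0.38 and 1.04 after quantile normalization of all arrays, and -0.14 and -0.47 in the deposited values, so its direction depended on the scaling.

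The remaining members were lower in cardiomyocytes than in hearts under all 3 scalings. Relative to array medians, WT cardiomyocytes minus WT hearts was -2.44 for Cd55, -2.03 for Serping1, -1.59 for C4b and -0.66 for Cr1l. After quantile normalization these were -2.48, -2.74, -1.65 and -1.16. For Cd55 the order was WT hearts at 0.48, KD hearts at 0.25, WT cardiomyocytes at -1.96 and KD cardiomyocytes at -2.32, and the cardiomyocyte groups overlapped. Serping1 stood at 3.86 in WT hearts, 3.78 in KD hearts, 1.83 in WT and 1.78 in KD cardiomyocytes, with overlap between the genotypes within each tissue. C4b stood at 0.58 in WT hearts, 0.46 in KD hearts, -0.97 in KD and -1.01 in WT cardiomyocytes, and Cr1l at 1.74, 1.60, 0.98 (KD) and 1.08 (WT) in the corresponding groups, again with overlap between the genotypes except for Cr1l in hearts on this scale.

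Fibroblast and macrophage markers were lower in cardiomyocyte than in heart arrays, as those 4 genes were, and cardiomyocyte markers were not. Cardiomyocyte markers had mean log2 levels of 13.05 to 13.14 in cardiomyocyte arrays and 13.02 to 13.26 in hearts, and relative to array medians they stood at 6.83 to 6.93 and 5.46 to 5.73. Fibroblast markers were at 6.70 to 7.26 and 9.77 to 10.17, macrophage markers at 5.31 to 6.00 and 8.94 to 9.16, and endothelial markers at 8.61 to 8.95 and 10.13 to 10.47. Relative to array medians the endothelial ranges overlapped, at 2.40 to 2.75 and 2.55 to 2.93. Macrophage markers thus lay below the array medians in the cardiomyocyte samples, and fibroblast and endothelial markers above them. The part of these cells in the levels of Cd55, Cr1l, Serping1 and C4b was not tested.

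The other complement genes gave no call in either comparison. Of 46 measured genes of 7 lists by role, 40 were not members. Of the 40, 15 were higher and 25 lower in KD cardiomyocytes (median -0.029, all genes -0.0001), where 50% of all genes were lower. In KD hearts 18 were higher and 22 lower (median -0.035, all genes 0.0076), where 47.4% of all genes were lower. By limma 0 of the 46 passed over all genes in hearts, and 0 of the 40 in cardiomyocytes, where the members were not tested. Arrays of the genotypes did not overlap in 5 of the 40 in cardiomyocytes, 2 with KD above (2.99% of all genes) and 3 with KD below (3.21%), and in 10 of the 40 in hearts, 5 with KD above (14.2% of all genes) and 5 with KD below (15.4%). All 6 measured members were lower in KD hearts, with a median of -0.15, where 47.4% of all genes were lower; both KD hearts lay below both WT hearts in 3 of the 6, which are Cd59a, Cd59b and Cd55.

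The other membrane regulators on the list differed by -0.14 to 0.10. Cd46, a cofactor for factor I, differed by -0.02 in cardiomyocytes and 0.10 in hearts, Cr2, a receptor for C3 fragments on B cells, by 0.05 and -0.14, and Cd55b, a paralog of Cd55, by -0.01 and -0.08, all at levels below the array medians. Among the soluble regulators, Clu (clusterin) was at 10.41, 10.47 and 10.43 in WT against 10.30, 10.06 and 10.56 in KD cardiomyocytes and differed by -0.13 (SE 0.12), and by -0.19 (SE 0.14) in hearts, with both KD hearts below both WT hearts. C4bp, a binding protein that inactivates C4b, differed by 0.18 and 0.14, with both KD hearts above both WT hearts, Vtn (vitronectin) by -0.04 and 0.09, and Cfi (factor I) by -0.03 and -0.04. Cpn1, a carboxypeptidase subunit that trims C3a and C5a, was added after its values were seen. It had the widest cardiomyocyte difference of the measured soluble regulators, -0.28 (SE 0.12), with every KD array below every WT array. In hearts it differed by 0.17 (SE 0.14), with both KD arrays above. Every KD lay below every WT cardiomyocyte array in 3.21% of all genes, and that together with KD above WT in hearts occurred in 0.557%. Both KD hearts lay above both WT hearts in 14.2% of all genes and below them in 15.4%.

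The classical pathway genes C1qb and C1qc had the widest differences among the 40 other complement genes in cardiomyocytes. C1qc was 5.95, 5.30 and 5.81 in WT against 5.17, 5.20 and 5.30 in KD, a difference of -0.46 (SE 0.15). C1qb differed by -0.54 (SE 0.26) with WT replicate 3 high at 7.90, and C1qa by -0.10 (SE 0.12). C1ra, a protease of the C1 complex, was 5.68, 5.81 and 5.86 in WT against 5.42, 5.61 and 5.47 in KD. That is a difference of -0.29 (SE 0.10) with every KD array below every WT array, as in 3.21% of all genes. C1s1 and C2, the proteases that follow, differed by 0.07 and 0.18. The macrophage marker list, which shares the C1q genes, was lower in 10 of 10 genes in KD cardiomyocytes (median -0.27), against 50% of all genes. Its mean level was 5.31 to 5.44 in KD and 5.61, 5.36 and 6.00 in WT replicates 1, 2 and 3. Without WT replicate 3 the list was lower in 8 of 10 genes with a median of -0.09. Its part in the C1q values was not tested. In hearts C1qa differed by 0.11, C1qb by 0.09, C1ra by -0.03, C1s1 by -0.11 and C2 by -0.12, and the mean of C1qc was the same in both genotypes to 2 decimals.

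The alternative pathway and terminal genes were higher in some cases and lower in others. Cfb, the protease of the alternative pathway enzyme, differed by -0.08 in cardiomyocytes and -0.18 in hearts, and Cfp (properdin), its stabilizer, by -0.08 and 0.22; Cfd was not measured under its own symbol. Of the 7 terminal components, the chain whose last step CD59 blocks, 5 were higher and 2 lower in KD cardiomyocytes (median 0.09). In KD hearts 4 were higher and 3 lower (median 0.02). The share of all genes that were lower was 50% in KD cardiomyocytes and 47.4% in KD hearts. Hc (C5), C6, C7 and C9 differed by 0.01, -0.06, 0.09 and 0.10 in cardiomyocytes and by 0.02, -0.09, -0.17 and 0.02 in hearts. The genes of C8, to which CD59 binds, were added after their values were seen: C8a, C8b and C8g differed by 0.15, 0.09 and -0.06 in cardiomyocytes and by 0.08, 0.07 and -0.15 in hearts. C8a was the terminal gene with the widest cardiomyocyte difference (SE 0.11). It was also the 1 of the 7 with every KD above every WT cardiomyocyte array, a separation found in 2.99% of all genes. In cardiomyocytes all 7 lay below the array medians, so their signal was dim. Of the 8 complement receptors all were lower in KD cardiomyocytes, against 50% of all genes; their median was -0.05 and the arrays overlapped in each. C3ar1, the C3a receptor, differed by -0.31 (SE 0.26), C5ar1, the C5a receptor, by -0.20 and Itgam, a chain of complement receptor type III, by -0.05. Without WT replicate 3, in which macrophage markers were highest, 5 of the 8 were lower, with a median of -0.016. The macrophage markers were lower in 10 of 10, as given above, and their part in the receptor values was not tested. In hearts 4 receptors were higher and 4 lower.

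**Figure D4:**
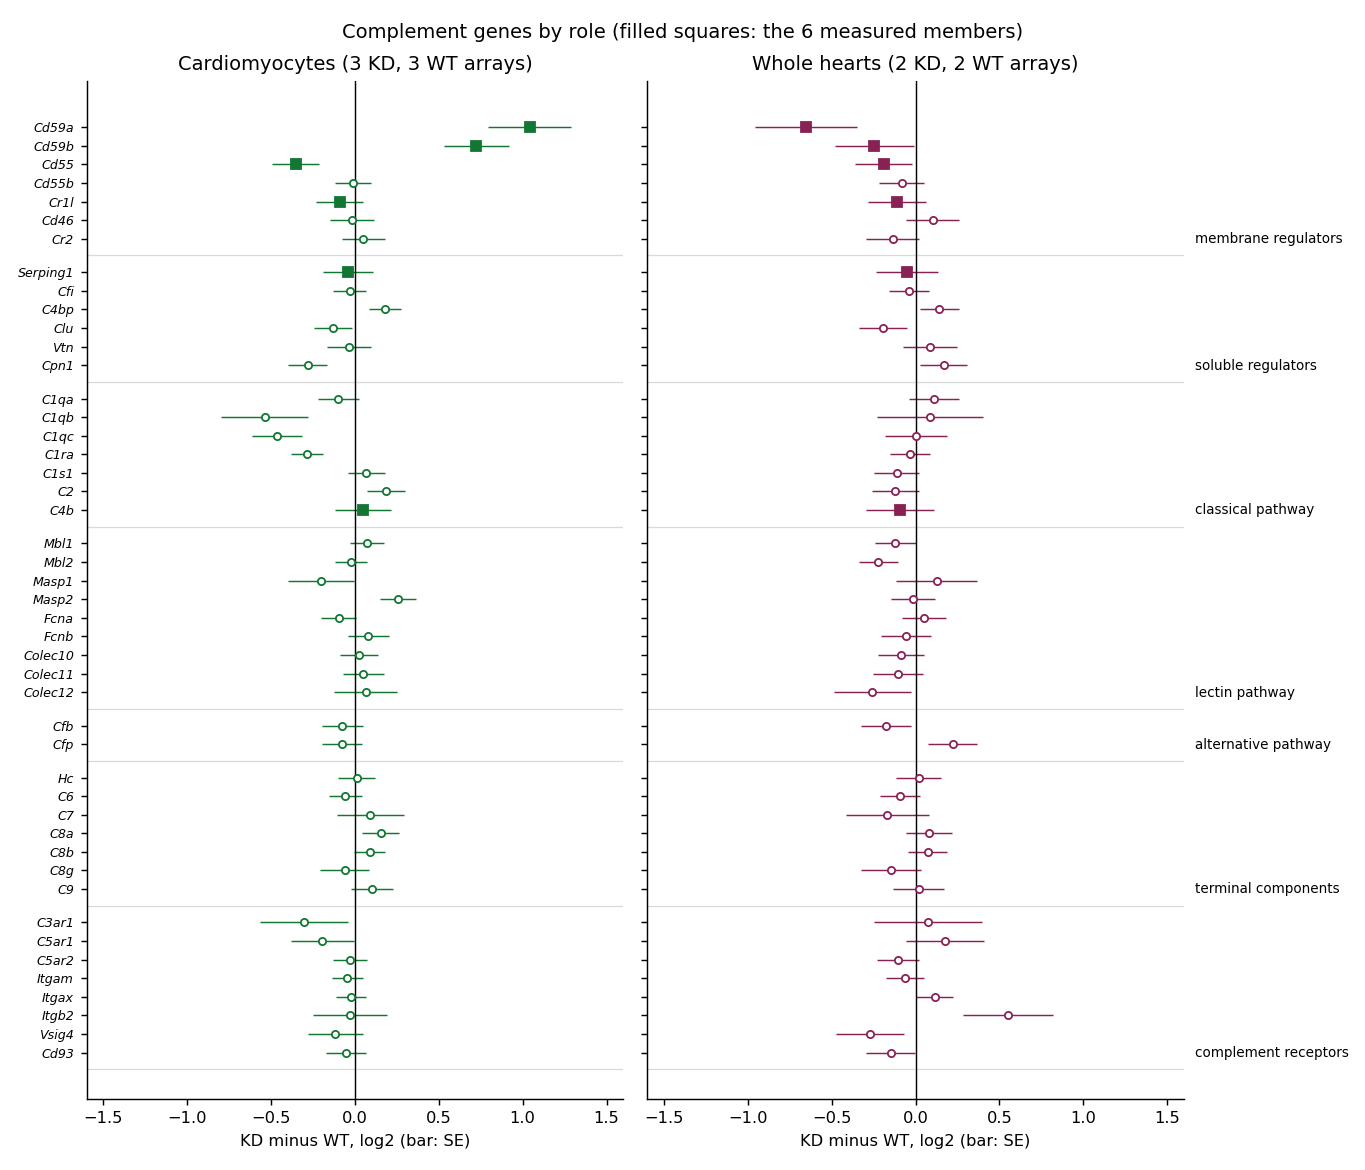
KD minus WT difference on the log2 scale (horizontal axis, bars SE) of 46 measured complement genes grouped by role, in cardiomyocytes (left) and whole hearts (right), with the 6 measured members as filled squares. Cd59a and Cd59b stand at 1.04 and 0.72 on the left and at -0.65 and -0.25 on the right, and C1qb and C1qc are the lowest points on the left, at -0.54 and -0.46.

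Interferon and acute phase signals are known to raise complement gene expression in many cell types, and the promoter window of Cd59a shown above held a match to an interferon motif. Of 16 measured genes of these responses, 12 were lower and 4 higher in KD cardiomyocytes (median -0.26), where 50% of all genes were lower. In KD hearts 10 were lower and 6 higher (median -0.034), where 47.4% of all genes were lower. The mean level of the 16 genes was 6.65, 6.35 and 7.19 in WT cardiomyocyte replicates 1, 2 and 3 and 6.39 to 6.49 in KD. WT replicate 3 carried the cardiomyocyte difference of this list: without it 8 genes were lower and 8 higher, with a median of -0.022. Without the same array the Cd59a difference was 0.90 and that of Cd59b 0.66. The part of these responses in the values of the members was not tested.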

How the data were processed

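Transcript levels were measured on Affymetrix arrays with biotin-labelled cDNA, per the labels' protocols. The table deposited by the authors holds a log2 intensity for each of 35556 probe sets. The submitters' processing notes name RMA and Partek, without settings. RMA compresses differences of dim probes and makes arrays alike in distribution. Genes were named from the platform annotation (21789 probe sets with 1 symbol, 19938 genes). No detection calls were used.

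All 10 arrays were fitted in limma 3.58.1 (R 4.3.3) with 4 group means and an intensity trend in eBayes, two-sided, at a Benjamini-Hochberg adjusted p of 0.05 over the 19938 genes. SEs come from this fit, so those of hearts also draw on the spread among the cardiomyocyte arrays. In a fit of the hearts alone the SE was 0.24 for Cd59a and 0.12 for Cd59b, and neither difference passed the threshold. Only KD against WT hearts was tested for the members. Pairs of members were compared by exact permutation within groups; since C3 was not measured, 15 pairs were formed. Neighbours, likeness and complement genes were named by fixed rules. The members and lists were chosen with earlier results of these data known. The code was tested on simulated data. Alternatives were other scalings, filters and eBayes settings, the replicate block and leaving out each array; list medians with an array left out were added after the data were seen. Promoter sequences and positions are from RefSeq (GRCm38.p6), which held 4 of the 6 measured members.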

Additional observations from a re-analysis of the deposited data

Results flagged for a closer look

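Cd59a and Cd59b differed between the genotypes in opposite directions in the 2 kinds of sample. Cd59a was higher in all 3 KD than in all 3 WT cardiomyocyte arrays, by 1.04, and lower in both KD than in both WT hearts, by -0.65. Cd59b was higher in all KD cardiomyocyte arrays, by 0.72, and lower in both KD hearts, by -0.25 (SE 0.24). Neither heart difference passed the threshold. Of all genes, 2.99% had every KD above every WT cardiomyocyte array, and 15.4% had both KD hearts below both WT hearts. The difference between the tissues was not tested, because the cardiomyocyte comparison had singled out these genes. The opposite directions held for both genes with each of the 10 arrays left out. No group held 4 or more arrays, so no array was tested as standing apart from its group in these genes.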

How the results depend on the processing

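The cardiomyocyte differences ranged from 0.81 to 1.30 for Cd59a and from 0.48 to 0.96 for Cd59b with each array left out, and the heart differences from -1.01 to -0.29 and from -0.35 to -0.14. The Pearson r between them ranged from 0.82 to 0.90, and its adjusted p stayed above 0.05 in each alternative run (0.104 after quantile normalization). No heart difference of a member passed in any alternative. Directions turned for Cr1l in cardiomyocytes, at -0.25 to 0.057 over the left-out arrays (0.057 without WT replicate 3), Serping1 in cardiomyocytes, at -0.25 to 0.10 (above 0 without WT replicate 1 or 3), C4b in cardiomyocytes, at -0.10 to 0.14 (below 0 without KD replicate 2), Serping1 in hearts, at -0.12 to 0.023 (0.023 without KD replicate 1), and C4b in hearts, at -0.42 to 0.24 (above 0 without WT replicate 1 or KD replicate 1). Serping1 in hearts was also 0.065 after quantile normalization. Of the tissue differences, those of Cd59a (-0.14) and Cd59b (-0.47) turned in the deposited values; the cause was not tested. The count of heart genes past the threshold ranged from 0 to 303 with 1 array left out: 2 without WT replicate 1, 1 without KD replicate 1, and 303 without KD replicate 2, which leaves the array with thymocyte markers as the only KD heart. It was 1 with the replicate block and 0 under every other setting run; the cardiomyocyte count was 0 throughout. Whether the replicate numbers pair the arrays is not settled by these data. The correlation of same-numbered deviations was 0.15, 0.13 and -0.05 in cardiomyocytes, where 4 of 6 arrays were closest to their own number, and 0.23 in hearts. With the replicate block the heart adjusted p was 0.584 for Cd59a and 0.852 for Cd59b. The filter on dim genes removed Cd59b. The small number of arrays limits the precision, as do the dim signals of Cd59b in both tissues and of Cd55 and C4b in cardiomyocytes.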

Other observations

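CD59 and CD55 reach the cell surface on GPI anchors, which a set of endoplasmic reticulum enzymes builds and attaches. Of 26 measured genes of this route, 19 were higher and 7 lower in KD cardiomyocytes (median 0.029), and 10 were higher and 16 lower in KD hearts (median -0.046). Of all genes, 50% were lower in KD cardiomyocytes and 47.4% in KD hearts. Without KD cardiomyocyte replicate 1, 12 of the 26 were higher and 14 lower in cardiomyocytes, with a median of -0.028. By limma 0 of the 26 passed in either tissue. In cardiomyocytes 1 of the 26 had every KD array above every WT array (2.99% of all genes), and both KD hearts lay below both WT hearts in 7 (15.4% of all genes). Piga, a subunit of the enzyme of the first step, differed by 0.07 in cardiomyocytes and 0.08 in hearts, and Gpaa1, a subunit of the enzyme that attaches the anchor, by 0.002 and 0.07. Genes of the lectin pathway, which starts complement from sugar patterns, were higher in 6 of 9 in KD cardiomyocytes (median 0.05) and lower in 7 of 9 in KD hearts (median -0.09), and 0 of 9 passed in either.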
